A study of Arabidopsis thaliana with 6 samples.

Results

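The microRNA (miRNA) miR163 of Arabidopsis thaliana is described here in small RNA from whole seedlings of the mutant aar2-1 and of wild type (WT). Its rows were found by name, and the tables held 1 such entry, miR163, among 197 miRNA entries. The entry carries no arm suffix, and the strand opposite to it in the hairpin is not analysed here. The aar2-1 group comprised 3 libraries and the WT group 3 libraries, all from seedlings aged 14 days that were kept on MS medium in days of 16 h light and 8 h dark. No treatment or transgene is named for either genotype, and the accession background and the kind of change that the aar2-1 allele carries are not given in the sources used here. The series' design text calls the 3 libraries of a genotype biological replicates. AAR2 belongs to a protein family that is known from yeast for its part in the assembly of the spliceosome. Small RNA tables hold no mRNA values, so neither the AAR2 transcript nor a tissue marker could be checked against the labels.

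miR163 is a miRNA of the crucifer family. Most plant miRNAs are shorter, and miR163 is known as an unusually long product that DICER-LIKE 1 cuts from a long hairpin. It guides cleavage of mRNAs for SABATH methyltransferases, enzymes that transfer a methyl group to small molecules such as plant hormones and defence metabolites, and it is known for its induction by light in seedlings and for a role in early root growth. The MIR163 primary transcript is known to be spliced, with an intron beyond the hairpin. The tables measured the mature miRNA, not its primary transcript, the splicing or the target mRNAs.

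The mature strand and the strand that faces it are shown first, because miR163 is a long mature miRNA whose hairpin resembles its target genes. In the TAIR10.1 assembly with its RefSeq annotation, the precursor (AT1G66725, MIR163) lay at chr1:24884066-24884396 on the plus strand. The mature sequence was at chr1:24884359-24884382, in no other annotated gene, and it is written with its seed (bases 2 to 8) in capitals. The opposite stretch, at chr1:24884080-24884100, is the part of the hairpin that pairs with it in the predicted fold.
miR163: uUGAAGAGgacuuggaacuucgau
opposite stretch: aucgaguuccaaccucuucaa
No other of the 428 annotated mature miRNAs had the seed of miR163 (0 others). The mature sequence had 1 exact match in the genome, its own locus, and 0 places with 1, 2 or 3 mismatches. The full mature sequence therefore has a single annotated origin at this level of similarity. The reads counted to the entry were not examined, so shorter or shifted reads are not covered.

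The 2 ends of the precursor, each of 60 bases, hold both arms, with the opposite stretch in capitals in the first and the mature strand in capitals in the last.
first 60 bases: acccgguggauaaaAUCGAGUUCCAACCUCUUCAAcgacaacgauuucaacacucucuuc
last 60 bases: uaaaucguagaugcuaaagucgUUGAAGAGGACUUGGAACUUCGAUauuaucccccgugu
The precursor had 331 bases, against a median of 144.5 bases over the 326 annotated miRNA precursors, and was the 35th longest of them. The mature strand took bases 294 to 317, on the 3′ arm and 14 bases from the end. In the minimum free energy fold (RNAfold, -122.1 kcal/mol), 21 of its 24 bases were paired, and 258 bases separated it from the opposite stretch.

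**Figure D1:**
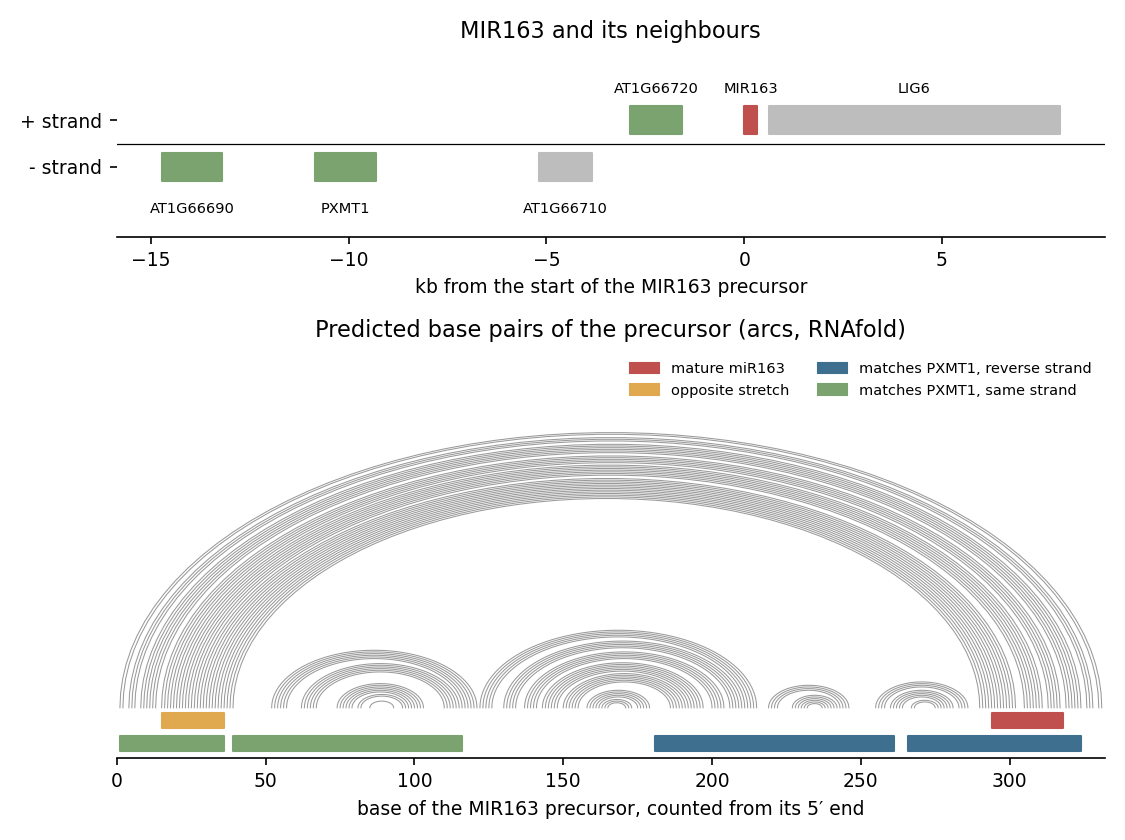
Top, genes around MIR163 by distance in kb from the start of its precursor, with the plus strand above the line and MIR163 in red, methyltransferase genes with a site shown here in green and other genes in grey. Bottom, predicted base pairs of the precursor as arcs between paired bases, with bars under them for the mature strand, the opposite stretch and the parts that match PXMT1 on the same or the reverse strand. The parts toward the 5′ end matched PXMT1 on the same strand and those toward the 3′ end on the reverse strand.

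MIR163 lay beside the genes it is known to target. AT1G66720, a methyltransferase gene on the same strand, lay 1585 bases before the precursor, the pseudogene AT1G66710 3845 bases, PXMT1 (AT1G66700) 9299 bases and AT1G66690 13200 bases before it, and LIG6, a DNA ligase gene, started 284 bases after it. In a nucleotide comparison (blastn), precursor bases 1 to 35 matched PXMT1 on the same strand with 86.5% identity over 37 alignment columns, and bases 39 to 115 did so with 84.4% over 77. Toward the 3′ end, bases 181 to 260 matched the reverse strand of PXMT1 with 88.8% identity over 80 columns, and bases 266 to 323 with 82.8% over 58. The likeness was not particular to PXMT1. AT1G66690 and AT1G66720 matched in the same arrangement, and so did AT1G66710, but without a match at the first bases. AT3G44860 and AT3G44870, target genes on chromosome 3, had fewer matches. In the predicted fold the stem that carries miR163 pairs bases 1 to 39 with bases 290 to 331, so, but for base 39, the matches at bases 39 to 115 and 181 to 260 lay outside that stem. The part of PXMT1 aligned to precursor bases 1 to 35, its gene bases 424 to 460, contains the site that pairs with miR163, at gene bases 437 to 460. The opposite stretch of the hairpin thus aligned with the target site itself.

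The sites in 5 known target genes are shown because they hold the bases that miR163 reads. Each is the best ungapped match to all 24 bases in the gene's annotated mRNAs, written 5′ to 3′ as RNA. Capitals mark bases that form no Watson-Crick pair with miR163 in that ungapped alignment.
AT1G66690: CAUCGaguuccaaguccucuucaa
PXMT1: CAUCGaguuccaaguccucuucaa
AT1G66720: CAUCGaguuccaGguccucuucaa
FAMT: aAUCGaguuccaaguUUucuucaa
AT3G44870: UAUCGaguuccaaguUUucuucaa
The first 3 are on chromosome 1, at chr1:24870402-24870425, chr1:24874307-24874330 (both minus strand) and chr1:24881603-24881626. FAMT (AT3G44860), a farnesoic acid methyltransferase, and AT3G44870 are on chromosome 3, at chr3:16380055-16380078 and chr3:16382618-16382641. Every one of these 5 sites lay in the coding sequence of exon 2.

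Counted from the 5′ end of miR163, the sites of AT1G66690 and PXMT1 were identical and paired with bases 1 to 19 without a break. In the ungapped alignment used here, their mismatches were at miRNA bases 21, 23 and 24 and their G:U pairs at bases 20 and 22. AT1G66720 added a G:U pair at base 12. FAMT and AT3G44870 had G:U pairs at bases 8 and 9, and in this alignment FAMT alone of the 5 also paired at base 24. After its first base, each of the 5 sites holds the letters that open the opposite stretch of the hairpin. In the predicted fold, precursor bases 15 to 19 of that stretch paired with bases 317 to 313 and base 20 with base 311, which left a miRNA base out. The positions listed past base 19, and the scores, thus depend on the ungapped alignment. Pairing with a gap was not scored. With a mismatch counted as 1 and a G:U pair as 0.5, the sites scored 4 in AT1G66690, PXMT1 and FAMT, 4.5 in AT1G66720 and 5 in AT3G44870. Among 31458 genes with an annotated mRNA, 38 (0.121%) had a site that scored 5 or less. That limit is the highest score of the 5 sites shown, and most of the 38 genes are not among these 5. A score of 4 or less was found in 8 genes, of which AT1G66690, PXMT1 and FAMT are among the 5. The score alone thus does not single out the known targets. The exact complement of bases 1 to 19 occurred in the mRNAs of 2 genes, AT1G66690 and PXMT1. These matches describe letters only, since target mRNA levels were not measured.

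The first comparison asked whether aar2-1 changes the level of miR163. miR163 was lower in aar2-1 than in WT, by 1.80-fold in mean RPM, the reads of an entry scaled to a library of 1000000 reads. It had 222, 186 and 191 RPM in aar2-1 replicates 1 to 3, against 389, 299 and 394 RPM in WT replicates 1 to 3. Every aar2-1 library lay below every WT library, and the 95% counting intervals of the closest pair, 214 to 231 RPM in aar2-1 replicate 1 and 289 to 311 RPM in WT replicate 2, did not overlap. The values rest on 2564, 1312 and 1685 reads in aar2-1 and on 3641, 2921 and 3351 reads in WT. These reads were worked out by taking the smallest value above 0 in a library as 1 read, and 72 to 93 low values per library were there to check that step, too few by the rule under which count models were not run. The intervals rest on these reads and cover counting error only.

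The mean was 200 ± 19.8 RPM in aar2-1 and 361 ± 53.1 RPM in WT (SD, n = 3 each), a difference of -161 RPM. The two-sided exact permutation test of the genotype labels gave p = 0.10, the smallest that 3 libraries against 3 allow. In limma, fitted across all entries on log2(RPM + 1), the log2 fold change of miR163 was -0.84 (SE 0.27, 95% interval -1.41 to -0.27, adjusted p = 0.0128). The call was lost in limma without aar2-1 replicate 2 (-0.79, adjusted p = 0.0581), without WT replicate 1 (-0.78, adjusted p = 0.0685) and without WT replicate 3 (-0.77, adjusted p = 0.0736).

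**Figure D2:**
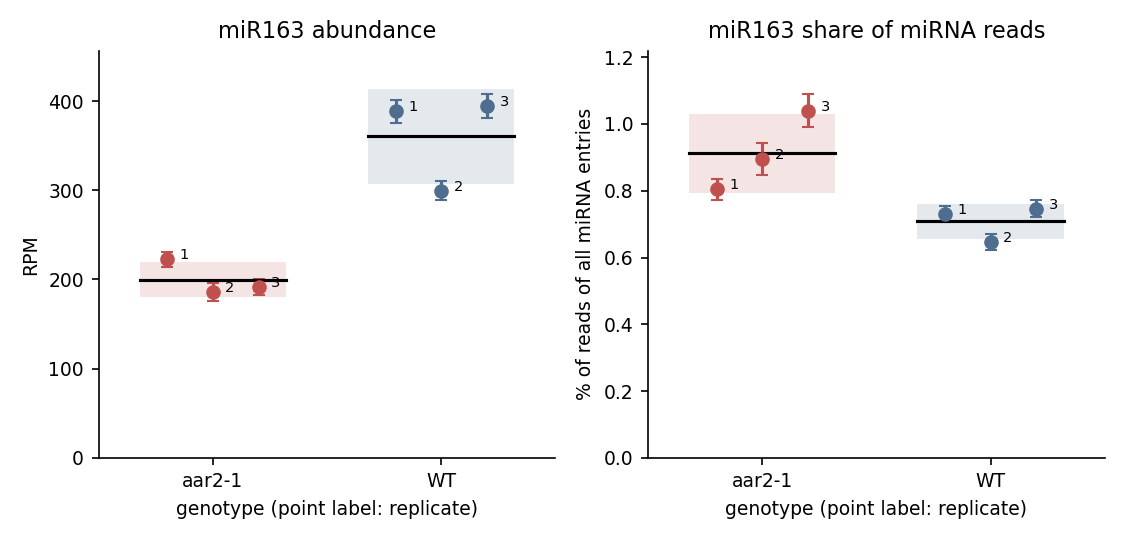
Left, miR163 in RPM, and right, miR163 as a percentage of the reads of all 197 miRNA entries, for each library of aar2-1 (red) and WT (blue). Points carry their replicate number and 95% counting intervals, black lines are means and shaded bands are ± 1 SD over 3 libraries. In RPM the aar2-1 libraries all lie below the WT libraries, and as a share of miRNA reads they all lie above them.

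The fall of miR163 was read against that of the other miRNAs, most of which also fell. Entries with a mean of 1 RPM or more were tested, 131 in all. Of these, 83 (63.4%) passed an adjusted p of 0.05, 80 of them lower in aar2-1 (61.1%) and 3 higher (2.29%), and 78 (59.5%) had every aar2-1 value below every WT value. The call of miR163 was thus shared with most of the table. The median log2 fold change of the tested entries was -0.83, and miR163, at -0.84, stood in the middle of the order, with 64 entries more negative and 66 less negative. Among the 69 entries with a mean of at least 10 RPM the median was -1.04, and 42 of these entries were more negative than miR163. The place of miR163 against the median also depended on the pseudocount. Over the 131 entries, a pseudocount of 0.1 gave a median of -1.03 and -0.84 for miR163. With a pseudocount of 5 they were -0.58 and -0.83.

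As a part of the miRNA pool, miR163 was larger in aar2-1. It took 0.804%, 0.894% and 1.04% of the reads of all miRNA entries in aar2-1 replicates 1 to 3, against 0.731%, 0.647% and 0.746% in WT replicates 1 to 3. The exact binomial 95% intervals were 0.773 to 0.835%, 0.846 to 0.943% and 0.989 to 1.09% in aar2-1, and 0.708 to 0.755%, 0.624 to 0.671% and 0.721 to 0.772% in WT. These intervals too cover counting error only, and those of aar2-1 replicate 1 and WT replicate 3 all but touched. Every aar2-1 share lay above every WT share. The mean share was 0.912% ± 0.118 in aar2-1 and 0.708% ± 0.0534 in WT (SD, n = 3 each), 1.29-fold higher in aar2-1 (exact permutation p = 0.10, two-sided and again the lowest the design allows). Of the 131 tested entries, 29 (22.1%) had every aar2-1 share above every WT share and 24 (18.3%) every one below.

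The total of all entries but miR163 was 22097 ± 4790 RPM in aar2-1 and 50382 ± 3813 RPM in WT, 2.28-fold lower in aar2-1, against 1.80-fold for miR163. Without the 3 entries of largest mean in the total, the share of miR163 was 2.60% ± 0.457 in aar2-1 and 1.75% ± 0.156 in WT. Its place by abundance among the 197 entries was 16th, 14th and 13th in aar2-1 and 18th, 18th and 17th in WT.

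The direction of the change therefore depended on the scale. When every library was scaled to the same total of miRNA reads, the log2 fold change of miR163 in limma was 0.36 (SE 0.16, adjusted p = 0.117), where the median of all tested entries was 0.13. When each library was divided by its median ratio over the entries of at least 10 RPM, which raised the median by 0.84 to 0.01, it was 0.24 (SE 0.21, adjusted p = 0.439). After that division miR163 had 223, 296 and 368 RPM in aar2-1 and 229, 247 and 264 RPM in WT, and the genotypes overlapped (means of 296 ± 72.5 and 246 ± 17.6, exact permutation p = 0.40). Centring each library on its median gave 0.50 (limma adjusted p = 0.0684), where the median of all tested entries was 0.52. Centring moves the log2 fold change of every entry by the same amount, so miR163 necessarily kept its place at the median. Centring did not remove the shared shift but turned it round, with 55 entries past the threshold as higher and 12 as lower. Quantile normalization gave 0.59 (limma adjusted p = 0.0365), where the median was 0.06. Of these 4 scalings, quantile normalization was the one under which miR163 passed the threshold as higher in aar2-1, as did 18 of the 131 entries (13.7%).

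**Figure D3:**
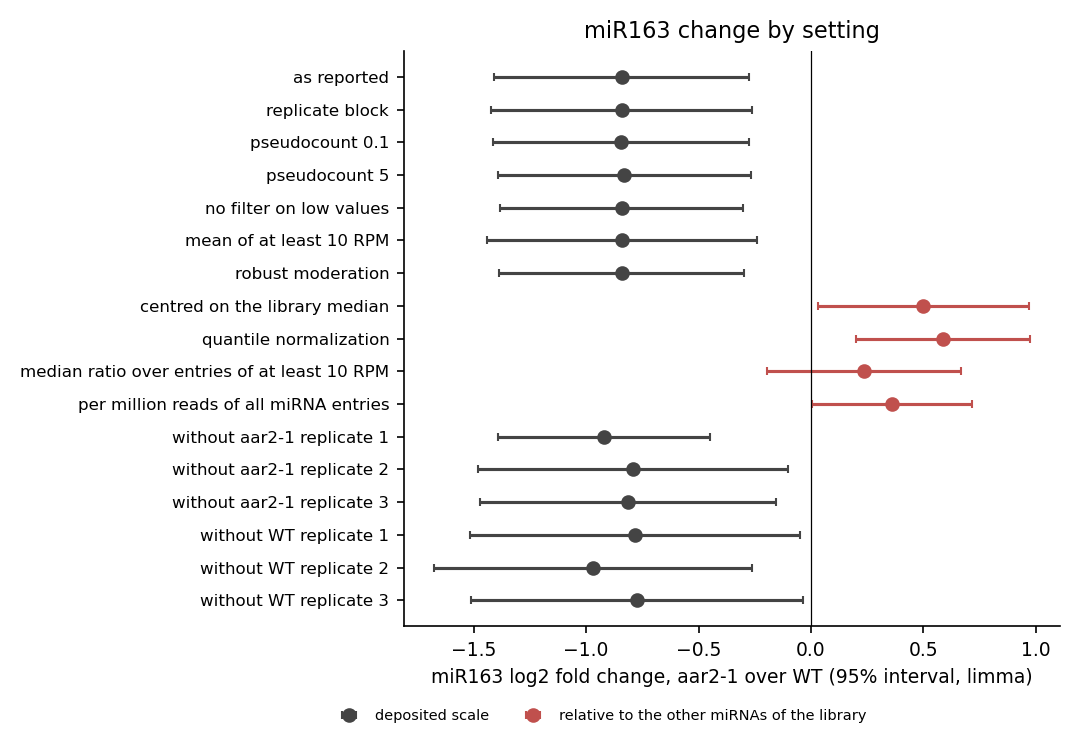
Log2 fold change of miR163, aar2-1 over WT, with its 95% interval from limma, for the setting as reported and each alternative down the page. Grey points keep the deposited scale and run from -0.97 to -0.77, and red points set miR163 against the other miRNAs of the same library and run from 0.24 to 0.59.

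Most entries of like abundance had a more negative log2 fold change than miR163. Of the 20 tested entries next to miR163 in mean WT abundance, 10 on each side, 16 passed the threshold as lower in aar2-1, 0 as higher and 4 did not pass, beside 61.1% lower and 2.29% higher over all tested entries. Their median log2 fold change was -1.35, from -2.29 to -0.24, and 16 of the 20 were more negative than miR163. The median of these neighbours was -0.28 with the median ratio, -0.16 at equal miRNA reads, -0.20 after quantile normalization and -0.01 after centring. Centring put the median of all tested entries at 0.52. Under each of these 4 scalings miR163 was above 0. The median ratio, equal miRNA reads and centring each apply a common factor per library, which moves entries of this abundance nearly alike. Under those scalings the order of miR163 and the neighbours' median was thus bound to stay. This order was not tested, and the neighbours were chosen by WT values that also enter the fold change.

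The entries just above miR163 in WT were miR165a-3p/miR165b, miR393b-3p and miR396a-5p. The miR165 entry, which targets class III HD-ZIP transcription factors that set leaf polarity, had 163.5, 104.6 and 104.7 RPM in aar2-1, against 586, 563 and 481 RPM in WT. Its log2 fold change was -2.15 (SE 0.28, limma adjusted p = 1.89e-05), so it stood below miR163 in aar2-1 and above it in WT. The entry miR393b-3p had 377, 269 and 252 RPM in aar2-1, against 420, 335 and 408 RPM in WT, and the genotypes overlapped (-0.39 on the log2 scale, SE 0.27, limma adjusted p = 0.201). miR396a-5p, of the family that targets growth-regulating factors, had 258, 129 and 77.6 RPM in aar2-1, against 537, 192 and 383 RPM in WT, which also overlapped (-1.30 on the log2 scale, SE 0.42, limma adjusted p = 0.0149).

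The entries just below miR163 in WT were miR395b/c/f, miR399b/c-3p and miR395a/d/e, regulators of sulfate assimilation (miR395) and of phosphate homeostasis (miR399). Their aar2-1 means were 91.1 ± 14.2, 50.8 ± 18.3 and 52.5 ± 10.8 RPM, and their WT means were 339 ± 44.8, 243 ± 17.6 and 192 ± 34.6 RPM (SD, n = 3). Their log2 fold changes were -1.89, -2.29 and -1.86, each past the limma threshold. These 3 and the miR165 entry stayed negative under each of the 4 scalings, whereas miR396a-5p turned positive after centring (0.04) and quantile normalization (0.16), and miR393b-3p turned positive under all 4, from 0.69 to 0.95. In aar2-1, miR163 at 200 ± 19.8 RPM exceeded each of the 6 neighbours but miR393b-3p in mean, and the values of miR396a-5p overlapped its own. In WT, miR163 at 361 ± 53.1 RPM could not be placed apart from miR393b-3p at 388 ± 46.1 RPM, miR396a-5p at 371 ± 172.8 RPM or miR395b/c/f, whose values overlapped its own.

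**Figure D4:**
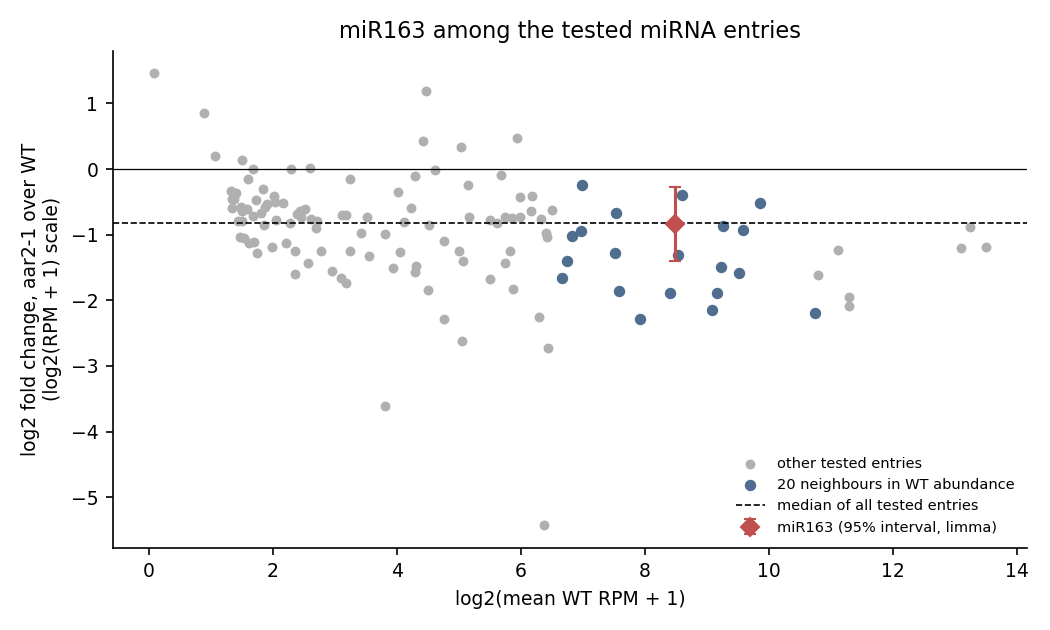
Log2 fold change, aar2-1 over WT, on the log2(RPM + 1) scale against log2 mean WT abundance for the 131 tested entries. miR163 (red, with its 95% interval) lies on the dashed line, the median of -0.83, and 16 of its 20 neighbours in abundance (blue) lie under miR163.

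By pattern over the 6 libraries, the entry nearest to miR163 was miR319a/miR319b, which targets TCP transcription factors of leaf growth. The measure was the root mean square difference between the deviations of log2(RPM + 1) from each entry's own mean, and it was 0.029 for miR319a/miR319b. This entry had 371, 316 and 320 RPM in aar2-1, against 644, 527 and 674 RPM in WT. It shared with miR163 the highest aar2-1 value in replicate 1 and the lowest WT value in replicate 2. The total of all entries had these places too, at 27680.5, 20780.8 and 18430.1 RPM in aar2-1 and 53127.3, 46281.9 and 52817.4 RPM in WT. The log2 fold change of miR319a/miR319b was -0.87 (SE 0.25, limma adjusted p = 0.00747), and under the 4 scalings it was positive (0.21 to 0.47), as was that of miR163. The entry was chosen for its likeness to miR163, so these shared traits add no separate likeness.

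The next by this measure were miR1888a (0.115), miR158b (0.137), miR158a-3p (0.137) and miR171b-5p (0.177). Of these, miR158a-3p was the most abundant, with 5404 ± 1389 RPM in aar2-1 and 9778 ± 1119 RPM in WT (SD, n = 3), 1.81-fold lower in aar2-1. Their log2 fold changes ran from -0.88 to -0.58 and turned positive under each of the 4 scalings. These entries too were chosen for their likeness to miR163, so that turn is no separate trait. The miR158 entries are of a crucifer miRNA, as miR163 is. All these entries share the 6 libraries and their depth, and the likeness is given as a description.

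miR161, another crucifer miRNA whose primary transcript is known to be spliced, targets mRNAs of pentatricopeptide repeat proteins. The entry miR161.1 had 1166, 896 and 805 RPM in aar2-1, against 2259, 2146 and 2273 RPM in WT. Its libraries did not overlap, and its log2 fold change was -1.24 (SE 0.22, limma adjusted p = 2.69e-04). The rarer miR161.2 had 10.2, 5.38 and 3.18 RPM in aar2-1, against 27.6, 9.84 and 19.4 RPM in WT, with an overlap between genotypes (-1.47 on the log2 scale, SE 0.41, limma adjusted p = 0.0061). After division by the median ratio the log2 fold changes were -0.16 for miR161.1 and -0.51 for miR161.2, against 0.24 for miR163, and miR161.1 turned positive after centring (0.10) and quantile normalization (0.41). The difference between miR163 and miR161 was not tested.

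**Figure D5:**
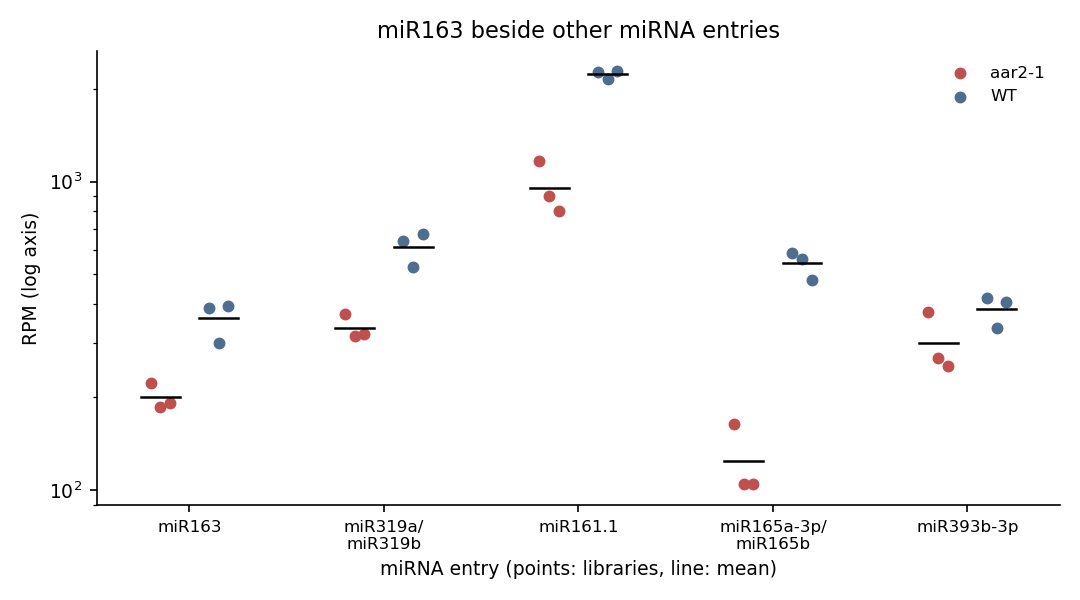
RPM on a log axis for miR163, for its nearest entry by pattern (miR319a/miR319b), for miR161.1 and for miR165a-3p/miR165b and miR393b-3p, which stand just above it in WT abundance. Points are the libraries of aar2-1 (red) and WT (blue) and lines are means of 3. The aar2-1 and WT points are separate in every entry shown but miR393b-3p.

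A list of crucifer miRNAs (miR158, miR161, miR173, miR400, miR447, miR822, miR824, miR825 and miR840, with miR163 left out) held 17 entries, of which 16 were tested. Of these, 9 passed as lower in aar2-1, 0 as higher and 7 did not pass, so the part called lower was near the 61.1% of all tested entries. The median log2 fold change was -0.78, beside -0.83 over all tested entries. With the median ratio, the medians were 0.02 and 0.01. Their range ran from -1.84 for miR824-5p and -1.68 for miR822-5p to -0.01 for miR158a-5p and 0.01 for miR840-5p. miR822-5p, a miRNA against mRNAs of zinc-binding DC1 domain proteins, had 13.6 ± 6.46 RPM in aar2-1 and 44.4 ± 13.5 RPM in WT (SD, n = 3).

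Long mature miRNAs were few. Including miR163, 8 of the 197 entries had a mature sequence of at least 23 bases, and 3 of them had 24. miR163 made up 92.7% ± 1.76 of the summed RPM of the 8 entries in aar2-1 and 92.3% ± 0.261 in WT. The next was miR156b-3p, with 11.9 ± 4.64 RPM in aar2-1 and 17.9 ± 4.54 RPM in WT.

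Of the 7 long entries other than miR163, 4 were tested. miR5654-3p and miR167c-3p passed as lower, with log2 fold changes of -1.67 and -0.79, and miR156b-3p and miR829-3p.1 did not pass, at -0.59 and -0.34 (limma adjusted p = 0.141 and 0.217). These 2 of 4 stand beside 61.1% called lower over all tested entries. Their median was -0.69, and 0.02 with the median ratio. The only tested entry of 24 bases other than miR163 was miR829-3p.1, which had 0.924 ± 0.179 RPM in aar2-1 and 1.52 ± 0.851 RPM in WT, so the length class rests on miR163. In mean RPM, miR829-3p.1 was 1.65-fold lower in aar2-1, and the log2(RPM + 1) scale understates the change of entries this low. The entry miR167c-3p was low too, with 0.665 ± 0.408 RPM in aar2-1 and 1.84 ± 0.386 RPM in WT.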

How the data were processed

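The authors deposited 1 table per library with RPM values per miRNA entry. The unit was inferred from the values: each of the 1182 values, divided by the smallest value above 0 of its library, was whole within 0.02, so that step was taken as 1 read. This gives denominators of 7062198 to 11524176 reads and 146758 to 497904 miRNA reads per library. The submitters' processing notes name cutadapt, Bowtie and TAIR10. The denominator, the read lengths kept and the handling of reads with several matches are not given in the sources used here; a length limit would bear on a 24-base miRNA.

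Entries were tested with limma 3.58.1 (R 4.3.3) on log2(RPM + 1), genotype as the only factor, with a variance trend, two-sided, Benjamini-Hochberg adjusted over 131 entries, threshold 0.05; fold changes on this scale understate those of low entries. The fit was checked on simulated reads with log2 changes of 1.5 and 2 in both directions. It recovered 97.9% and 99.7% of them, and 3.15% of its calls were false. The simulation held no change as small as that of miR163 and no fall shared by most entries, so it does not cover these. Single values were compared with exact permutation tests. Sequences, names (all 242 found) and positions came from RefSeq TAIR10.1; RNAfold 2.7.2 and blastn 2.17.0 were used with Python 3.11.15.

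Named entries were miR163, its 3 neighbours on each side in WT abundance, the 5 nearest patterns, miR161, and of each list all members or, above 5, the 2 at either end of the fold changes. Members and lists were chosen with earlier results of these data known. A list of miRNA genes with introns was not run, since all 326 precursors are annotated with 1 exon.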

Additional observations from a re-analysis of the deposited data

How the results depend on the processing

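On the deposited scale the log2 fold change of miR163 was negative in every fit run, and it passed the limma threshold with the replicate block (adjusted p = 0.00846), pseudocounts of 0.1 and 5, no filter, a filter at 10 RPM and robust moderation. It ran from -0.97 to -0.77 over the 6 fits that each left out a library, of which 3 passed. The scalings reversed it, to 0.50 (centring), 0.59 (quantile), 0.24 (median ratio) and 0.36 (equal miRNA reads per library), and moved the difference of means to 49.4 RPM (median ratio) and 2039 reads of the common miRNA total. The median log2 fold change of all tested entries, -0.83 as reported, was 0.01 with the median ratio, 0.06 after quantile normalization and 0.13 at equal miRNA reads. It was 0.52 after centring, which moves every entry alike, so that miR163 kept its place at the median. On the deposited scale the median was -1.03 with a pseudocount of 0.1, -0.58 with 5 and -0.63 with no filter. In the first of these fits miR163 stood above the median, and in the others below it. The count of entries past the threshold was 83 as reported, 45 at 10 RPM because fewer entries were tested, 34 after quantile normalization (16 lower, 18 higher), 49 with the median ratio (27 lower, 22 higher), 38 at equal miRNA reads (16 lower, 22 higher), and 67 after centring (12 lower, 55 higher). It was 62 to 108 with a library left out. The share of miRNA reads stayed higher in aar2-1, by 0.141 to 0.258 percentage points with a library left out and by 0.844 points without the 3 largest entries. The replicate numbers were not taken as pairs: same-numbered libraries correlated at 0.49, 0.05 and -0.15, and 2 of 6 libraries correlated best with their own number. With the replicate block 98 entries passed, and the exact sign-flip p of the miR163 difference (-161 RPM) and of its share (0.204 points) was 0.25, the smallest possible. The 3 planned count-model alternatives were not run, because too few low values were left to recover reads by the rule used.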
